A study of Homo sapiens with 6 samples.

Results

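Amino acid transporters of 6 solute carrier families were examined in PC3 prostate cancer cells with and without silencing of Mic60. The set held every protein-coding gene whose symbol begins with SLC1A, SLC3A, SLC7A, SLC36A, SLC38A or SLC43A, which gave 41 genes of the 57736 in the deposited table. The prefix also takes in SLC7A6OS, which is named for its place opposite SLC7A6 and does not encode a transporter, so that 40 of the 41 are solute carriers. The remaining 8 matches by symbol were antisense transcripts, pseudogenes and other non-coding RNAs and were left out, among them the pseudogenes SLC7A5P1 and SLC7A5P2, which had no count in any library.

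PC3 is an androgen-independent line grown from a human prostate cancer metastasis. The siMic60 group comprised 3 libraries from PC3 cells, which the sample titles call Mic60 KO and the library names call siMic60, and the siCTRL group comprised 3 libraries from PC3 cells titled Mic60 WT and named siCTRL. The libraries were made with a QuantSeq 3′ mRNA kit, which reads a short stretch near the polyadenylated end of each transcript, so levels are given in CPM, counts scaled to library size by the trimmed mean of M-values (TMM), with no division by transcript length. No source used here gives the dose of siRNA or the time after transfection. The methods of the study speak of biological replicates in general, but nothing says that these libraries came from separate cultures, so the p-values measure only the spread between these libraries, which may be technical.

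The libraries held 6644495 to 8779877 counts in siMic60 cells and 7714837 to 8396244 counts in siCTRL cells, of which the 41 genes took 0.122% to 0.133% in siMic60 cells and 0.118% to 0.125% in siCTRL cells. IMMT, which encodes Mic60, measured 5.83, 7.34 and 8.53 CPM in siMic60 libraries, against 88.9, 91.2 and 90.4 CPM in siCTRL libraries (log2 change -3.62, SE 0.15, edgeR adjusted p = 4.29e-10). Of the 11 leukocyte markers 8 were at 0 in all libraries, and the list summed to 0.346 to 1.10 CPM in siMic60 libraries and 1.68 to 2.22 CPM in siCTRL libraries. The 4 endothelial markers (3 of them in the table, with VWF and CDH5 at 0 in all libraries) summed to 1.96 to 3.53 CPM in siMic60 libraries and 1.80 to 4.07 CPM in siCTRL libraries. The 7 fibroblast markers summed to 54.9 to 73.5 CPM in siMic60 libraries and 283 to 378 CPM in siCTRL libraries, nearly all of it COL1A1, with DCN at 0 in all libraries, and the part of this difference in the results was not tested. All 6 epithelial and PC3 markers were detected (2 higher and 3 lower in siMic60 cells), and KLK3 was at 0 in all libraries. In these bulk samples, fewer cells of a type and less RNA per cell cannot be told apart.

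Amino acids cross membranes through carriers that differ in the side chains they accept and in what drives them. Most exchangers of the SLC7 family work as pairs, in which a light chain that moves the amino acid is held in the membrane by a heavy chain of the SLC3 family, SLC3A2 (CD98, 4F2hc) or SLC3A1 (rBAT). Sodium-driven carriers of the SLC1 and SLC38 families bring in small neutral amino acids such as glutamine, and exchangers such as SLC7A5 spend these on uptake of leucine and other large neutral amino acids, whose level is read by the mTORC1 pathway.

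After filtering at 10 counts in at least 3 of the 6 libraries, 24 of the 41 genes were tested together with all other genes, 14653 in total. A gene was called where its adjusted p in edgeR's quasi-likelihood test was under 0.05 over all genes tested. Of the 24 tested, 6 (25%) were higher in siMic60 cells, where 17.7% of all tested genes were higher, and 5 (20.8%) were lower, where 17.9% of all tested genes were lower. Both shares lay near the background. The higher genes were SLC7A5, SLC3A2, SLC7A1, SLC7A11, SLC38A10 and SLC1A3, and the lower genes were SLC3A1, SLC38A11, SLC43A2, SLC38A1 and SLC38A6. SLC7A5 and SLC1A3 were over 2-fold higher, and SLC3A1 and SLC38A11 were over 2-fold lower. SLC38A11 passed the filter only through the siCTRL libraries. SLC3A1 reached 10 counts in all siCTRL libraries and in siMic60 replicates 2 and 3, so the siMic60 libraries alone would not have passed it.

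With library totals in place of TMM, which moved the median log2 change of all tested genes to -0.055 against 0.0022, the split was 4 higher and 5 lower. The calls of SLC1A3 and SLC7A11 were the ones lost under that scaling. Leaving out siCTRL replicate 2 gave 3 higher and 3 lower genes, and leaving out siCTRL replicate 3 gave 4 higher and 3 lower genes. The groups did not overlap in 12 of the 24 genes (50%), against 47.9% of all genes tested, and these 12 were the 11 called genes and SLC43A1. The median log2 change of the 24 was -0.0087, against 0.0022 over all genes tested, and their range ran from -4.38 for SLC38A11 to 1.90 for SLC7A5.

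**Figure D1:**
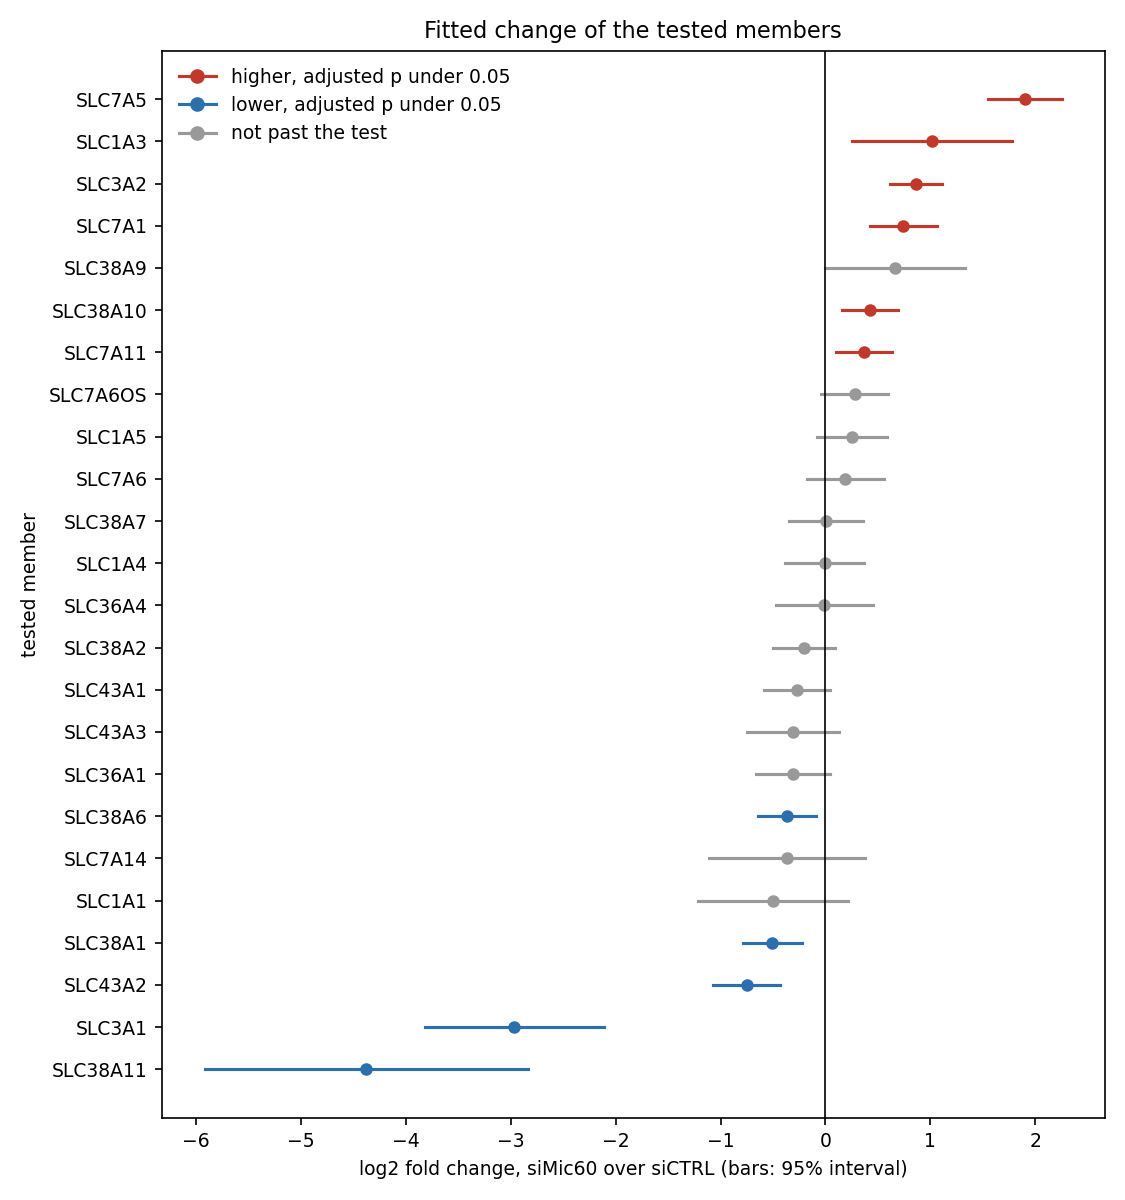
Log2 change in siMic60 against siCTRL libraries (horizontal axis, with bars for the 95% interval) of the 24 tested genes, ordered by value, with called genes told apart by colour. SLC7A5 stands at the upper end at 1.90, SLC3A1 and SLC38A11 at the lower end at -2.97 and -4.38, and most other genes lie within 1 unit of 0.

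The heavy chain SLC3A2 (ENSG00000168003) was the more abundant of the SLC3 pair and rose in siMic60 cells. It measured 189, 180.1 and 205 CPM in siMic60 libraries, against 110.1, 111 and 94.8 CPM in siCTRL libraries. The groups did not overlap, and the change was 1.82-fold with a 95% interval of 1.53 to 2.17 (log2 change 0.86, SE 0.12, edgeR adjusted p = 5.32e-05). SLC3A2 carries the light chains of systems L, y+L and xc- to the cell surface.

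SLC3A1, the heavy chain of the cystine and dibasic amino acid exchanger of kidney and gut, fell in siMic60 cells. It had 1, 15 and 17 counts in siMic60 libraries, against 93, 91 and 83 in siCTRL libraries, or 0.153, 1.84 and 1.96 CPM in siMic60 libraries, against 11.1, 11.4 and 10.2 CPM in siCTRL libraries. The groups were far apart, and siMic60 replicate 1 was the lowest library with 1 count. The change was 0.128-fold with a 95% interval of 0.0707 to 0.232 (log2 change -2.97, SE 0.40, edgeR adjusted p = 4.86e-05), and the ratio of the summed counts was 0.129 (95% interval 0.0872 to 0.186, counting error only). The end of SLC3A1 overlaps that of PREPL, a serine hydrolase gene on the opposite strand, and no source used here gives the strand setting of the counting, so reads from either gene cannot be told apart. PREPL itself was higher in siMic60 cells, with 38.9, 46.5 and 47.4 CPM in siMic60 libraries, against 29.5, 34.8 and 31.9 CPM in siCTRL libraries (log2 change 0.47, SE 0.13, edgeR adjusted p = 0.0139), the opposite direction to SLC3A1. The light chains known to join SLC3A1 were close to absent, with SLC7A9 at 3, 1 and 0 counts in siMic60 libraries, against 1, 0 and 0 in siCTRL libraries and SLC7A13 at 0 in all libraries. Within a library the ratio of SLC3A1 to SLC3A2 counts was 0.00685 ± 0.00524 in siMic60 libraries and 0.104 ± 0.00350 in siCTRL libraries (SD, n = 3 each).

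SLC7A5 (LAT1, ENSG00000103257), the light chain that takes up leucine, phenylalanine, tryptophan and other large neutral amino acids, showed the largest rise among the tested genes of the 6 families. It measured 179, 138 and 116 CPM in siMic60 libraries, against 32.8, 39.3 and 43.5 CPM in siCTRL libraries. The lowest siMic60 library was over 2-fold above the highest siCTRL library, and the spread was wider in siMic60 cells. The groups averaged 144 ± 31.9 CPM in siMic60 libraries and 38.5 ± 5.38 CPM in siCTRL libraries (SD, n = 3 each), and the change was 3.74-fold with a 95% interval of 2.94 to 4.77 (log2 change 1.90, SE 0.16, edgeR adjusted p = 5.96e-07). Leaving out each library in turn gave log2 changes of 1.73 to 2.04, each still called.

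SLC7A11 (xCT), the light chain that imports cystine in exchange for glutamate, rose by less. Its level was 53.5, 47.5 and 48.1 CPM in siMic60 libraries, against 41.0, 37.1 and 37.4 CPM in siCTRL libraries. The groups did not overlap but lay close together, and the change was 1.29-fold with a 95% interval of 1.07 to 1.55 (log2 change 0.37, SE 0.12, edgeR adjusted p = 0.0321). The call was lost with library totals (log2 change 0.31, adjusted p = 0.0636) and without siMic60 replicate 1 (adjusted p = 0.101), siMic60 replicate 3 (adjusted p = 0.0516), siCTRL replicate 2 (adjusted p = 0.115) or siCTRL replicate 3 (adjusted p = 0.110).

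SLC7A6 (y+LAT2), which exchanges cationic for neutral amino acids with sodium, measured 27.6, 18.5 and 24.7 CPM in siMic60 libraries, against 20.5, 18.5 and 22.9 CPM in siCTRL libraries. The groups overlapped and no difference was called (log2 change 0.19, SE 0.17, edgeR adjusted p = 0.428, fold interval 0.883 to 1.47). On the opposite strand, SLC7A6OS, whose product is related to a yeast factor for nuclear import of RNA polymerase II, measured 54.6, 37.4 and 46.0 CPM in siMic60 libraries, against 34.9, 36.8 and 41.9 CPM in siCTRL libraries. It was not called either (log2 change 0.28, SE 0.15, edgeR adjusted p = 0.167), except without siMic60 replicate 2 (log2 change 0.42, adjusted p = 0.0483). The 3′ ends of SLC7A6 and SLC7A6OS overlap on opposite strands, so reads of this pair cannot be told apart with the counting as described.

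The other light chains of SLC3A2 were too low to test. SLC7A8 (LAT2), another system L exchanger, had 1, 1 and 0 counts in siMic60 libraries, against 8, 5 and 8 in siCTRL libraries, a ratio of sums of 0.0997 (95% interval 0.0113 to 0.408, counting error only). SLC7A7 (y+LAT1) had 4, 2 and 0 counts in siMic60 libraries, against 3, 9 and 13 in siCTRL libraries, a ratio of 0.251 (95% interval 0.0843 to 0.627, counting error only). The libraries of SLC7A8 did not overlap between the groups and those of SLC7A7 did, while SLC7A10 (Asc-1), which carries small neutral amino acids, was at 0 in all libraries. With no minimum count, SLC7A8 was the untested gene that passed the threshold (log2 change -3.08, SE 1.13, adjusted p = 0.0305).

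Since the 6 light chains share SLC3A2 as their partner, each was also given as a share of their summed counts in a library. SLC7A5 made up 68.6%, 67.5% and 61.5% in siMic60 libraries, against 34.3%, 40.6% and 40.9% in siCTRL libraries. It was thus the most counted light chain in all 3 siMic60 libraries, while in siCTRL cells it was so in replicates 2 and 3 and SLC7A11 was so in replicate 1. The share of SLC7A11 was 23.1% ± 2.47 in siMic60 libraries and 38.8% ± 3.89 in siCTRL libraries, and that of SLC7A6 was 10.9% ± 2.01 in siMic60 libraries and 20.7% ± 1.35 in siCTRL libraries (SD, n = 3 each). Shares sum to 100%, so SLC7A11 had a lower share in siMic60 cells beside a higher level.

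Per count of the heavy chain, the 6 light chains summed to 1.38, 1.13 and 0.923 in siMic60 libraries, against 0.868, 0.874 and 1.12 in siCTRL libraries. These groups overlapped. The ratio of SLC7A5 to SLC3A2 was 0.950, 0.765 and 0.568 in siMic60 libraries, against 0.298, 0.355 and 0.459 in siCTRL libraries, with no overlap. The ratio of SLC7A11 to SLC3A2 was 0.284, 0.264 and 0.235 in siMic60 libraries, against 0.372, 0.336 and 0.394 in siCTRL libraries, lower in every siMic60 library than in every siCTRL library. Shares and ratios are descriptions of transcripts, with no test, and say nothing of the assembled proteins.

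**Figure D2:**
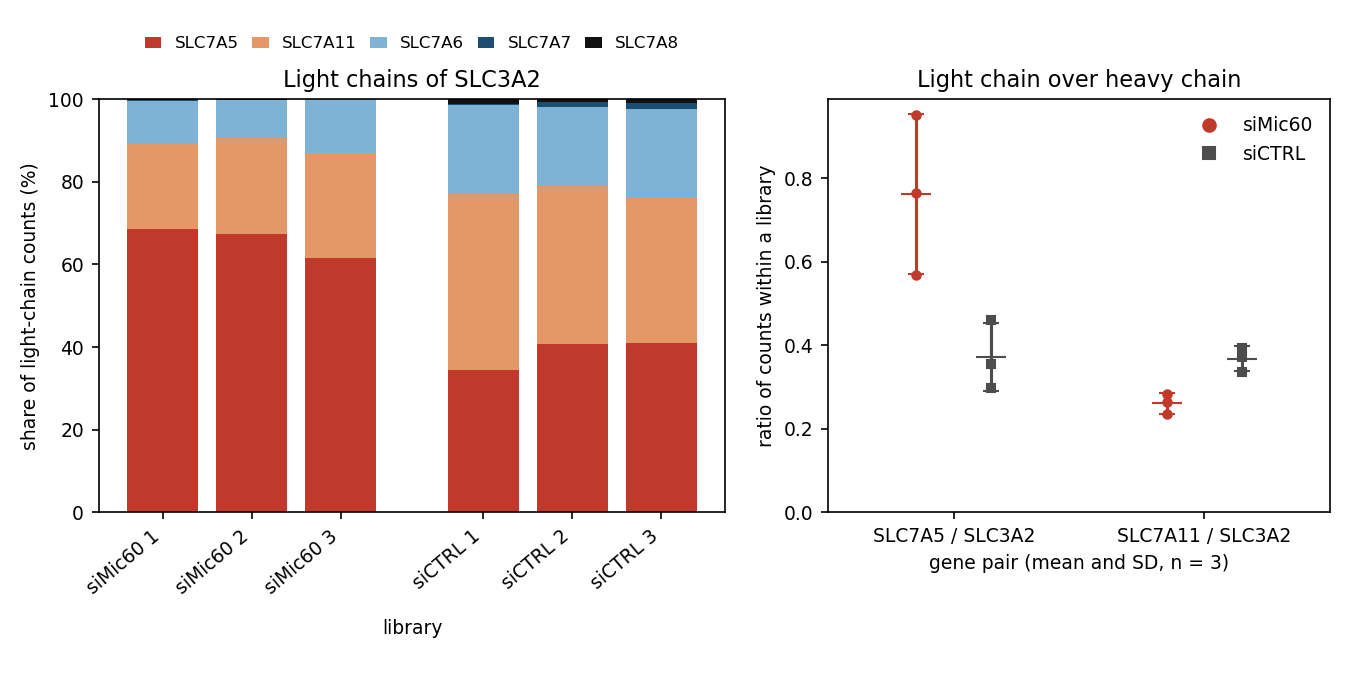
Left, the share of each light chain (vertical axis, percent of the summed counts of the light chains of SLC3A2) in each library, and right, the counts of SLC7A5 and of SLC7A11 over those of SLC3A2 (points are libraries, bars the mean and SD, n = 3). SLC7A5 averaged 65.9% of the light-chain counts in siMic60 libraries and 38.6% in siCTRL libraries, and its ratio to SLC3A2 did not overlap between the groups.

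The promoters of SLC7A5 and of its heavy chain SLC3A2 are shown because they hold the same short sequence near the start of transcription, the core of the antioxidant response element, TGACNNNGC, which is bound by NRF2 (NFE2L2) and related factors. The sequences are from RefSeq, build GRCh38.p14, from 250 bases before to 50 after an annotated start, with the core in capitals. SLC7A5 lies on the minus strand at chr16:87869458-87869757, with the core beginning 2 bases before the start, and SLC3A2 on the plus strand at chr11:62881449-62881748, with the core beginning 37 bases before it.
SLC7A5: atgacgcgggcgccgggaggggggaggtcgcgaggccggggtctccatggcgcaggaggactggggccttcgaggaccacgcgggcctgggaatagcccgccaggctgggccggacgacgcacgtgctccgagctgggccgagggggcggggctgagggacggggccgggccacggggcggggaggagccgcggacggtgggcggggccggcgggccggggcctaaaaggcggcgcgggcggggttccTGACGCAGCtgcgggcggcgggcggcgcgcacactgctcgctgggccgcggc
SLC3A2: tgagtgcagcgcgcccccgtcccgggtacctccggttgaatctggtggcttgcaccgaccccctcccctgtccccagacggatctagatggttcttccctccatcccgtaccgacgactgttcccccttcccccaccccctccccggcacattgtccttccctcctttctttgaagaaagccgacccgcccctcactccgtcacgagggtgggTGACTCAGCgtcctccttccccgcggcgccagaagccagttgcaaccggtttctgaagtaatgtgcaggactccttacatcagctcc

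Further promoters of the families held the core, and the stretch around each match is shown with 15 bases on either side. They belong to the called genes SLC7A1 (chr13:29595750-29595788, minus strand) and SLC1A3 (chr5:36606395-36606433, plus strand), and to SLC1A5 (chr19:46787381-46787419, minus strand, core on the other strand), SLC7A7 (chr14:22819856-22819894, minus strand) and SLC7A6 (chr16:68264314-68264352 and chr16:68264482-68264520, plus strand), which were not called or not tested.
SLC7A1: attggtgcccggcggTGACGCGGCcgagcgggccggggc
SLC1A3: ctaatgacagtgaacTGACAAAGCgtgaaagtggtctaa
SLC1A5: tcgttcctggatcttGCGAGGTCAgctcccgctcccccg
SLC7A7: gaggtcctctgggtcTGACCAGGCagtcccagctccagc
SLC7A6: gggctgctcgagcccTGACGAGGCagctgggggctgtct
SLC7A6: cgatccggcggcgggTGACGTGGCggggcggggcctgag

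The table held 54 promoters of 32 of the 41 genes, and some genes had several starts. On either strand the core was found in 7 of the 54 (13.0%), against 4687 of all 35116 promoters (13.3%). By gene it was found in 4 of the 5 higher genes with a promoter in the table, in none of the 4 lower genes and in 3 of the other 23. The higher gene SLC7A11 and the lower gene SLC3A1 had no promoter in the table. The share by gene was not counted over all genes, and a gene with several starts has more places for a match, so this split has no background beside it. The exact sequence TGATGNAAT, a form of the C/EBP-ATF composite element through which ATF4 acts, was found in 0 of the 54 and in 348 of all promoters (0.991%). Variants of this sequence were not searched, so its absence does not show that these promoters lack such an element. The interferon-stimulated response element was found in 2 of the 54 (3.70%), those of SLC38A4 and SLC7A7, and in 3.57% of all promoters. The 3 motifs were searched on both strands and do not contain each other. A match is a description of letters in this window and was not tested against the changes.

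SLC7A1 (CAT1), the main carrier of arginine and lysine in most cells outside the liver, rose in siMic60 cells. It measured 53.8, 54.9 and 47.0 CPM in siMic60 libraries, against 24.8, 35.8 and 32.5 CPM in siCTRL libraries. No siCTRL library reached the lowest siMic60 library, and the change was 1.67-fold with a 95% interval of 1.34 to 2.08 (log2 change 0.74, SE 0.15, edgeR adjusted p = 0.00133). Its relative SLC7A2 (CAT2) was not tested, with 7, 8 and 11 counts in siMic60 libraries, against 8, 6 and 3 in siCTRL libraries and a ratio of sums of 1.60 (95% interval 0.836 to 3.14, counting error only), which includes 1. SLC7A3 (CAT3) had counts in 1 library alone, siCTRL replicate 2, and SLC7A4 had none. System y+, the sum of SLC7A1, SLC7A2 and SLC7A3, was 53.0 ± 4.13 CPM in siMic60 libraries and 31.8 ± 5.58 CPM in siCTRL libraries (SD, n = 3 each), nearly all of it SLC7A1. SLC7A14 was low, with 2.45, 3.67 and 2.42 CPM in siMic60 libraries, against 2.64, 4.88 and 3.58 CPM in siCTRL libraries, overlapping groups and no call (log2 change -0.37, SE 0.35, edgeR adjusted p = 0.444). The end of SLC7A14 overlaps other genes on the opposite strand, so its reads may be shared.

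The SLC38 family held the most abundant gene of the set. SLC38A2 (SNAT2), a sodium-coupled carrier of alanine, glutamine and other small neutral amino acids, measured 354, 378 and 466 CPM in siMic60 libraries, against 545, 398 and 441 CPM in siCTRL libraries. The groups overlapped, with siMic60 replicate 3 above siCTRL replicates 2 and 3, and no difference was called (log2 change -0.21, SE 0.14, edgeR adjusted p = 0.265, fold interval 0.707 to 1.06). SLC38A1 (SNAT1), the other main system A carrier here and a route of glutamine uptake, fell in siMic60 cells. It measured 101, 86.5 and 96.9 CPM in siMic60 libraries, against 112, 143 and 150.03 CPM in siCTRL libraries, all siMic60 libraries below all siCTRL libraries. The change was 0.704-fold with a 95% interval of 0.578 to 0.857 (log2 change -0.51, SE 0.13, edgeR adjusted p = 0.00818), and it was called under all 13 alternatives run. SLC38A4 (SNAT4), the liver form, was at 0 in all libraries. System A, summed over SLC38A1, SLC38A2 and SLC38A4, was 495 ± 59.3 CPM in siMic60 libraries and 596 ± 58.1 CPM in siCTRL libraries (SD, n = 3 each), a ratio of 0.830. The groups overlapped in this sum, with 456 to 563 CPM in siMic60 libraries and 541 to 657 CPM in siCTRL libraries.

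SLC38A10, a widely expressed member of the family, was higher in siMic60 cells. Its level was 83.7, 87.4 and 88.1 CPM in siMic60 libraries, against 73.0, 55.8 and 64.5 CPM in siCTRL libraries. The siMic60 libraries were close to each other and all above the siCTRL libraries, and the change was 1.34-fold with a 95% interval of 1.11 to 1.61 (log2 change 0.42, SE 0.13, edgeR adjusted p = 0.0163). Without siCTRL replicate 2 (adjusted p = 0.109) or siCTRL replicate 3 (adjusted p = 0.0523) it was no longer called.

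SLC38A6, another member, was lower. Its level was 30.5, 35.6 and 30.6 CPM in siMic60 libraries, against 39.8, 43.3 and 41.5 CPM in siCTRL libraries. The groups did not overlap, and the change was 0.776-fold with a 95% interval of 0.641 to 0.941 (log2 change -0.36, SE 0.13, edgeR adjusted p = 0.0396), close to the threshold. The call was lost in DESeq2 (adjusted p = 0.0561), with no minimum count (adjusted p = 0.0804) and when siMic60 replicate 1 (adjusted p = 0.123), siMic60 replicate 3 (adjusted p = 0.113), siCTRL replicate 2 (adjusted p = 0.117) or siCTRL replicate 3 (adjusted p = 0.0861) was left out.

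SLC38A11 was close to absent from siMic60 cells. It had 0, 1 and 1 counts in siMic60 libraries, against 23, 17 and 11 in siCTRL libraries. Its highest siMic60 library held 1 count, against at least 11 in each siCTRL library, and the ratio of sums was 0.0410 (95% interval 0.00484 to 0.156, counting error only). The fit gave a log2 change of -4.38 (SE 0.72, edgeR adjusted p = 2.79e-04), and limma-trend with a prior count of 2 gave -2.80 (adjusted p = 9.89e-04), so the size of the change at these counts depends on the model.

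Members of the family at the lysosome did not pass the test. SLC38A9, which passes arginine levels to mTORC1, measured 3.83, 7.47 and 7.72 CPM in siMic60 libraries, against 4.79, 4.25 and 3.08 CPM in siCTRL libraries. In siMic60 cells replicate 1 was near the siCTRL libraries and the other 2 were above them, and the difference was not called (log2 change 0.66, SE 0.31, edgeR adjusted p = 0.115) except without siMic60 replicate 1 (log2 change 0.92, adjusted p = 0.0267). SLC38A7, which exports glutamine and asparagine from lysosomes, measured 18.9, 15.5 and 15.3 CPM in siMic60 libraries, against 16.3, 15.6 and 17.4 CPM in siCTRL libraries, with overlapping groups (log2 change 0.01, SE 0.16, edgeR adjusted p = 0.979, fold interval 0.788 to 1.28). Of the system N carriers of the cell surface, SLC38A5 had 4, 3 and 6 counts in siMic60 libraries, against 6, 6 and 7 in siCTRL libraries, a ratio of 0.716 (95% interval 0.325 to 1.53, counting error only), and SLC38A3 had 2 counts in siMic60 replicate 1 and none elsewhere. SLC38A8 had no count in siMic60 libraries, against 2, 2 and 1 in siCTRL libraries.

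**Figure D3:**
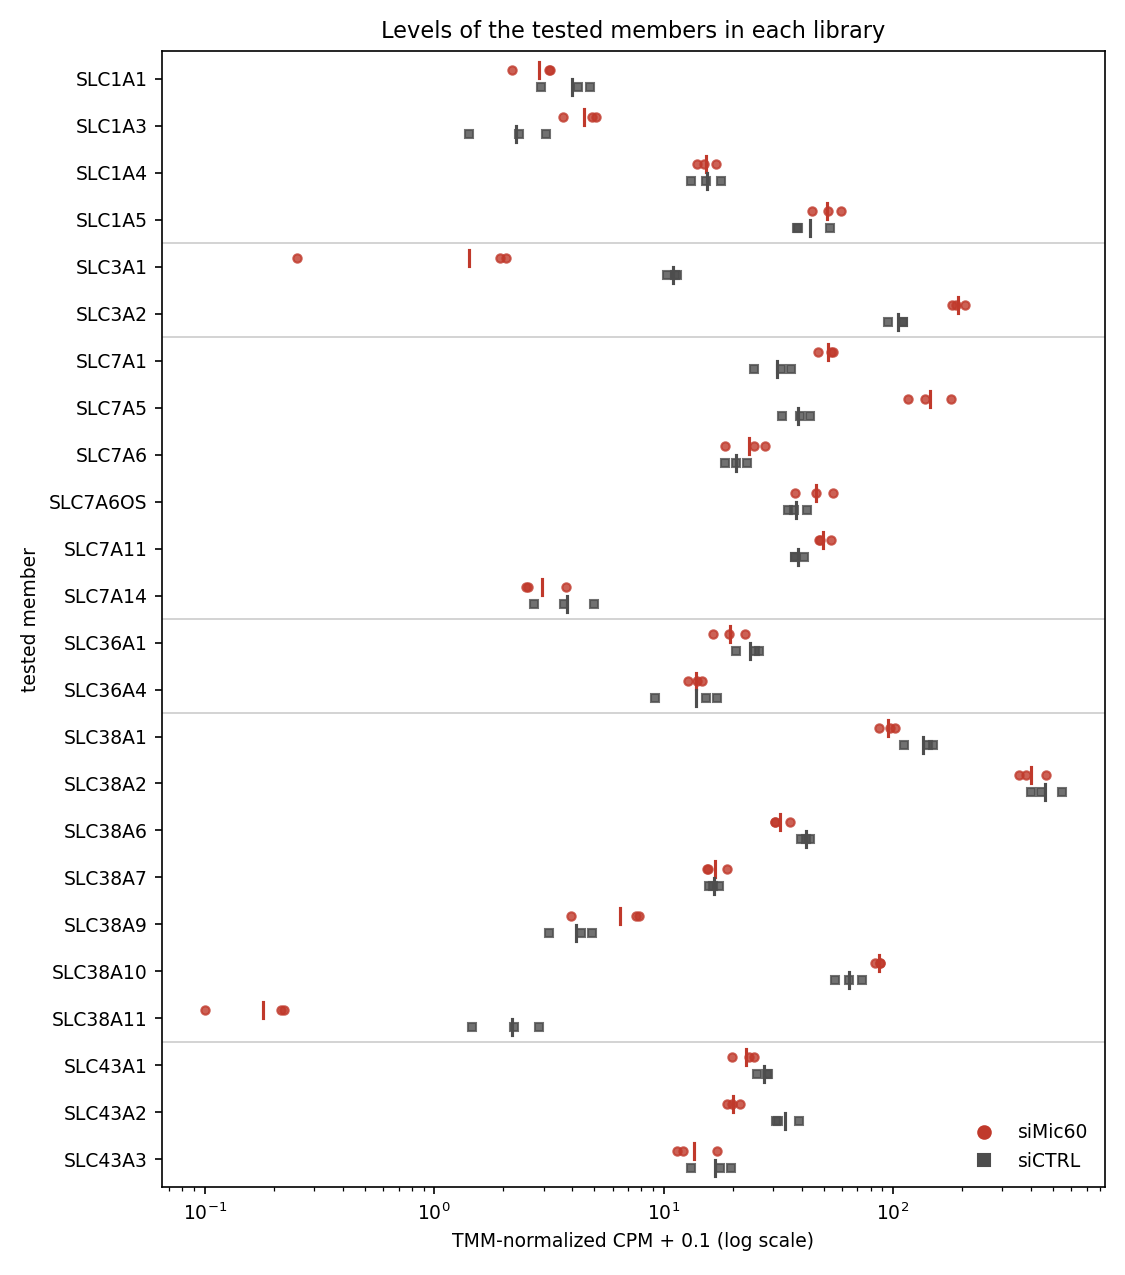
Level of each of the 24 tested genes (horizontal axis, TMM-normalized CPM plus 0.1 on a log scale) in each library, with siMic60 libraries as circles, siCTRL libraries as squares and the group means as vertical strokes. SLC38A2 and SLC3A2 have the highest levels, the siMic60 points of SLC7A5 lie between 116 and 179 CPM, and its siCTRL points lie between 32.8 and 43.5 CPM.

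The SLC43 family moves large neutral amino acids without sodium or exchange, and 1 of its 3 members, SLC43A2, was called, as lower. SLC43A2 (LAT4), which carries leucine, isoleucine, phenylalanine and methionine, measured 19.8, 18.7 and 21.4 CPM in siMic60 libraries, against 30.7, 31.5 and 38.8 CPM in siCTRL libraries. The groups were well separated and the change was 0.594-fold with a 95% interval of 0.477 to 0.740 (log2 change -0.75, SE 0.15, edgeR adjusted p = 0.00118). SLC43A1 (LAT3), also known as a gene overexpressed in prostate cancer, measured 23.5, 24.7 and 19.8 CPM in siMic60 libraries, against 25.5, 28.4 and 28.1 CPM in siCTRL libraries. All siMic60 libraries were below all siCTRL libraries, yet the difference was not called (log2 change -0.27, SE 0.15, edgeR adjusted p = 0.164, fold interval 0.667 to 1.03).

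SLC43A3, which differs from its relatives in carrying purine nucleobases, measured 12.1, 17.01 and 11.3 CPM in siMic60 libraries, against 13.1, 19.6 and 17.5 CPM in siCTRL libraries, with overlapping groups and no call (log2 change -0.31, SE 0.21, edgeR adjusted p = 0.268). Its 3′ end overlaps a readthrough transcript on the same strand, so its reads may be shared. System L, summed over SLC7A5, SLC7A8, SLC43A1 and SLC43A2, was 187 ± 32.8 CPM in siMic60 libraries and 100.4 ± 10.7 CPM in siCTRL libraries (SD, n = 3 each). The sum was 1.86 times as high in siMic60 cells, with SLC7A5 above and SLC43A2 below its siCTRL level.

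In the SLC1 family the neutral amino acid exchangers were the abundant members and were not called. SLC1A5 (ASCT2), an exchanger of glutamine, measured 51.8, 59.0 and 44.3 CPM in siMic60 libraries, against 53.1, 38.5 and 38.1 CPM in siCTRL libraries. siCTRL replicate 1 lay within the siMic60 range and the other siCTRL libraries below it (log2 change 0.26, SE 0.16, edgeR adjusted p = 0.222, fold interval 0.948 to 1.51). Without siCTRL replicate 1 it was called (log2 change 0.43, adjusted p = 0.0325). SLC1A4 (ASCT1), which exchanges serine, alanine and threonine, measured 14.9, 13.95 and 16.8 CPM in siMic60 libraries, against 17.6, 13.1 and 15.2 CPM in siCTRL libraries, with overlapping groups and nearly equal means (log2 change -0.01, SE 0.18, edgeR adjusted p = 0.98, fold interval 0.766 to 1.29).

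Carriers of glutamate and aspartate were low in PC3 cells. SLC1A3 (EAAT1), known as the glutamate carrier of astrocytes, had 31, 29 and 43 counts in siMic60 libraries, against 11, 18 and 24 in siCTRL libraries, or 4.75, 3.55 and 4.96 CPM in siMic60 libraries, against 1.32, 2.25 and 2.96 CPM in siCTRL libraries. The groups did not overlap and the gene was called higher, at 2.03-fold with a 95% interval of 1.195 to 3.43 (log2 change 1.02, SE 0.36, edgeR adjusted p = 0.0372). At these counts the call was lost with library totals (adjusted p = 0.0505) and without siMic60 replicate 1 (adjusted p = 0.0753), siMic60 replicate 3 (adjusted p = 0.105), siCTRL replicate 1 (adjusted p = 0.135) or siCTRL replicate 2 (adjusted p = 0.0845).

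SLC1A1 (EAAT3), the form of neurons and epithelia, measured 3.07, 2.08 and 3.11 CPM in siMic60 libraries, against 4.67, 4.13 and 2.84 CPM in siCTRL libraries, with overlapping groups and no call (log2 change -0.50, SE 0.34, edgeR adjusted p = 0.272). SLC1A6 (EAAT4) was not tested and had 4, 1 and 1 counts in siMic60 libraries, against 8, 4 and 9 in siCTRL libraries, a ratio of sums of 0.299 (95% interval 0.0987 to 0.766, counting error only). SLC1A2 (EAAT2) and SLC1A7 (EAAT5) had at most 2 counts in any library. The 5 acidic amino acid carriers summed to 7.498 ± 1.41 CPM in siMic60 libraries and 7.11 ± 0.204 CPM in siCTRL libraries (SD, n = 3 each).

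The proton-coupled SLC36 family gave no call. SLC36A1 (PAT1), which carries glycine, alanine and proline out of lysosomes, measured 22.5, 19.1 and 16.3 CPM in siMic60 libraries, against 26.01, 20.5 and 24.9 CPM in siCTRL libraries, with siMic60 replicate 1 inside the siCTRL range (log2 change -0.31, SE 0.17, edgeR adjusted p = 0.166, fold interval 0.630 to 1.03). SLC36A4 (PAT4), which carries proline and tryptophan, measured 14.6, 12.7 and 13.8 CPM in siMic60 libraries, against 9.11, 17.01 and 15.3 CPM in siCTRL libraries. The siMic60 libraries lay within the wider siCTRL range (log2 change -0.01, SE 0.22, edgeR adjusted p = 0.979, fold interval 0.719 to 1.37). SLC36A2 had 2 counts in siMic60 replicate 3 and 4 in siCTRL replicate 1, and SLC36A3 had none.

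Summed by family, the SLC7 carriers (13 genes, without SLC7A6OS) measured 274 ± 40.5 CPM in siMic60 libraries and 135 ± 9.76 CPM in siCTRL libraries, a ratio of 2.03 that was carried by SLC7A5 and SLC7A1. The SLC3 family measured 193 ± 12.9 CPM in siMic60 libraries and 116 ± 9.58 CPM in siCTRL libraries, a ratio of 1.66. In neither family did the groups overlap. The SLC38 family, the most abundant, measured 637 ± 59.99 CPM in siMic60 libraries and 726 ± 65.9 CPM in siCTRL libraries, a ratio of 0.878 with overlapping groups. The SLC43 family measured 56.1 ± 3.997 CPM in siMic60 libraries and 77.8 ± 7.74 CPM in siCTRL libraries, a ratio of 0.722 without overlap. The SLC1 and SLC36 families had ratios of 1.13 and 0.876, with overlapping groups in both. All 41 genes together summed to 1313 ± 43.3 CPM in siMic60 libraries and 1196 ± 60.9 CPM in siCTRL libraries (SD, n = 3 each in these sums), a ratio of 1.10.

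**Figure D4:**
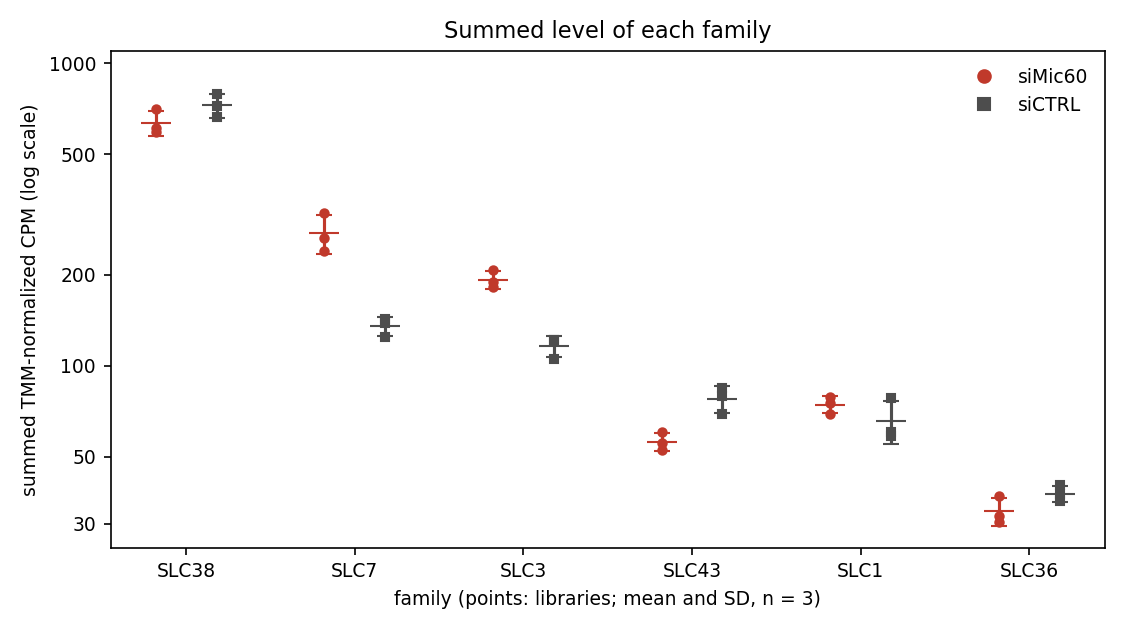
Summed TMM-normalized CPM of each family (vertical axis, log scale) in each library, with the mean and SD (n = 3). The siMic60 libraries lie above the siCTRL libraries in the SLC7 and SLC3 families and below them in the SLC43 family.

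The 17 untested genes comprised 8 of the SLC7 family, 4 of the SLC38 family, 3 of the SLC1 family and 2 of the SLC36 family. None had more than 13 counts in a library, and 5 were at 0 in all libraries (SLC7A4, SLC7A10, SLC7A13, SLC36A3 and SLC38A4). A count of 0 allows up to 3 counts, which is 0.346 to 0.460 CPM depending on the library, for counting error only.

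Outside the 6 families, 9 of 22 listed carriers of amino acids and peptides were tested, of which 4 were higher and 1 lower in siMic60 cells (median log2 change 0.16), against 17.7% higher and 17.9% lower of all genes tested. SLC15A3, a lysosomal carrier of peptides and histidine, measured 59.8, 42.7 and 49.6 CPM in siMic60 libraries, against 1.80, 2.88 and 1.97 CPM in siCTRL libraries. No siCTRL library came near the siMic60 libraries, and the change was 22.7-fold with a 95% interval of 16.5 to 31.3 (log2 change 4.51, SE 0.22, edgeR adjusted p = 1.01e-09). The related SLC15A4 (1.64-fold, adjusted p = 0.0011), the glycine carrier SLC6A9 (1.73-fold, adjusted p = 0.00936) and the lysosomal cysteine importer MFSD12 (1.35-fold, adjusted p = 0.0441) were higher, and the taurine carrier SLC6A6 (0.548-fold, adjusted p = 0.00946) was lower. Without siMic60 replicate 3 or without siCTRL replicate 2 the higher count was 2.

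Among 36 listed genes of amino acid sensing at the lysosome and of mTORC1, 34 were tested, 4 were higher and 7 were lower (median log2 change -0.15), against 17.7% and 17.9% of all genes tested, so that the lower count lay near the background. SESN2, the leucine sensor, was 2.06-fold higher (adjusted p = 3.86e-05), with SEC13, SEH1L and RRAGC also higher. SESN3 (0.187-fold, adjusted p = 0.0013) and RRAGB (0.484-fold, adjusted p = 0.00868), a guanosine triphosphatase that recruits mTORC1, were lower, and the 5 further lower genes had folds of 0.677 to 0.803. SESN3 had 1, 6 and 8 counts in siMic60 libraries, against 22, 31 and 31 in siCTRL libraries, so it passed the filter only through the siCTRL libraries. The lower count was 4 without siMic60 replicate 1 or siCTRL replicate 3, 2 without siMic60 replicate 3 and 3 without siCTRL replicate 1.

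All 14 listed partners, kinases and ubiquitin ligases that act on transporter proteins were tested, and 5 were higher and 2 lower (median log2 change -0.071), against 17.7% and 17.9% of all genes tested. CD44, which binds and holds SLC7A11 at the membrane, was 1.498-fold higher (adjusted p = 6.66e-04). SGK1, a kinase that raises carriers at the cell surface, was 2.28-fold higher (adjusted p = 7.33e-04), and BSG, MARCHF8 and LAPTM4A were also higher. MARCHF1, a ubiquitin ligase, was 0.354-fold the siCTRL level (adjusted p = 0.00162), and OTUB1, a deubiquitinase that stabilizes SLC7A11, was 0.728-fold (adjusted p = 0.0182). The lower count was 1 without siMic60 replicate 2 or without siCTRL replicate 1.

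All 18 listed kinases, factors and targets of the amino acid response and other regulators of carrier genes were tested, and 11 were higher, against 17.7% of all genes tested, and the median log2 change was 0.70. The 11 include MYC, NFE2L2 and BACH1, which act on carrier genes by other routes and are named outside the order of p. None was lower in edgeR, DESeq2 or limma-trend, nor at an unadjusted p under 0.05 in edgeR. ATF4, the factor that drives many carrier genes when amino acids are short, averaged 256 ± 36.9 CPM in siMic60 libraries and 125 ± 22.1 CPM in siCTRL libraries (SD, n = 3 each), a 2.05-fold difference (adjusted p = 6.48e-05). The kinases EIF2AK3 (3.00-fold, adjusted p = 2.25e-05) and EIF2AK2 (1.88-fold, adjusted p = 2.14e-05) and the factors ATF5 (2.11-fold, adjusted p = 4.65e-05), ATF3 (2.16-fold, adjusted p = 4.67e-05) and DDIT3 (1.96-fold, adjusted p = 1.15e-04) were higher with it. EIF2AK4 (GCN2), the kinase that senses uncharged tRNA when amino acids are short, was not called, although its siMic60 libraries were all below its siCTRL libraries (log2 change -0.16, SE 0.12, edgeR adjusted p = 0.323). ASNS, the asparagine synthetase gene (log2 change -0.09, SE 0.14, edgeR adjusted p = 0.661), and CHAC1, which degrades glutathione (log2 change 0.21, SE 0.18, edgeR adjusted p = 0.393), both targets of ATF4, were not called. TRIB3 (1.59-fold, edgeR adjusted p = 0.00145) and PPP1R15A (1.48-fold, edgeR adjusted p = 0.00384), also of this list, were called higher. How these factors bear on the carriers was not tested.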

How the data were processed

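Messenger RNA was measured in 3 siMic60 and 3 siCTRL libraries of PC3 cells, grouped by the library names. The authors deposited a table of counts per gene under Ensembl identifiers, with no normalization. Build hg19 (GRCh37), RSEM 1.2.3 and DESeq2 are listed, without their roles, in the processing notes of the submitters. RSEM estimates counts, while the deposited counts were whole numbers. The aligner, annotation and strand setting were not given in the sources used here. With 3′ reads, genes that overlap at their ends or share sequence may share counts.

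Symbols were found for 52301 of 57736 identifiers, 39501 from current names and 12800 from GENCODE 29. Coordinates are given for promoters only, in GRCh38.p14, because no annotation of the files' build was used. Each library held 6644495 to 8779877 counts. The 14653 genes that reached 10 counts in 3 or more of the 6 libraries were scaled by TMM and tested with edgeR 4.0.16 (glmQLFit, glmQLFTest, two-sided) in R 4.3.3, with Benjamini-Hochberg adjustment over all of them and a threshold of 0.05. The SE was the log2 change divided by the root of F, and intervals are at 95%. Intervals of count ratios are exact, use library sizes scaled by TMM, and cover counting error only. Sums, shares, ratios and motif searches (Python 3.11.15) carry no test. Promoters came from RefSeq, GRCh38.p14, and 9 of the 41 genes had none in the table.

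Those averaging 5 CPM or more in either group are given in all libraries. Up to 6 called genes of each further list were named by smallest adjusted p, along with others where 5 or fewer were counted. EIF2AK4, ASNS, CHAC1, MYC, NFE2L2, BACH1, TRIB3 and PPP1R15A were also named, all chosen after their values were seen. The gene set, lists, transport systems and motifs were chosen with earlier results of these data known. On counts simulated for 14336 genes in this comparison, edgeR called 17 of 63 genes changed 1.5-fold, 48 of 68 changed 2-fold, 64 of 65 changed 4-fold and 11 of 14140 unchanged genes. Far fewer genes were changed in the simulation than were called in the data, which makes the adjusted threshold stricter in the simulation. Alternatives were DESeq2 size factors, library totals, no minimum count, a minimum of 50 counts, DESeq2 1.42.0, limma-trend (limma 3.58.1, prior count 2), a replicate block and leaving out each library. No pair of libraries had counts within sampling noise of each other.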

Additional observations from a re-analysis of the deposited data

How the results depend on the processing

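Across the 13 alternatives no log2 change of a tested transporter gene that was called changed sign. Of the values of all 24 tested genes under these alternatives, 281 kept their side of the threshold, 20 lost it and 3 gained it. SLC7A5, SLC3A2, SLC7A1, SLC38A1, SLC43A2 and SLC3A1 were called under all 13, and SLC38A11 under all 9 that could fit it, since it fell below the filter in the others. Leaving out 1 library gave 3 to 7 higher and 3 to 5 lower transporter genes, against 6 and 5. It gave 2 to 4 higher genes among the other amino acid carriers, against 4, 2 to 5 lower sensing genes, against 7, and 1 to 2 lower regulators of transporter proteins, against 2. A minimum of 50 counts gave 1 such lower regulator. The replicate numbers did not pair the samples, with correlations of -0.10, -0.031 and 0.029 between same-numbered libraries. With the replicate block 5 transporter genes were higher and 4 lower, with the calls of SLC1A3 (log2 change 1.04, adjusted p = 0.0502) and SLC38A6 (-0.37, adjusted p = 0.0573) lost, 4 sensing genes were lower, and not every sample correlated best with its own number. For the other losses and gains the cause was not tested. With 3 libraries a group, changes under 2-fold were often missed in simulation. Far fewer genes were changed there than were called in the data, so these rates do not carry over directly to the data. Of the genes below the filter that could be fitted with no minimum count, SLC7A8 alone passed the threshold.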
